A study of Mus musculus with 8 samples.

Results

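The first megabase of assembled sequence on each mouse autosome is the stretch closest to the centromere. In the mm9 build it runs from position 3000000 to 4000000 of chromosomes 1 to 19, because the sequence nearer the centromere is a placeholder without bases. The peak lists of 8 libraries were merged wherever peaks shared at least 1 bp, and every merged region that started below 4000000 on an autosome was taken. This gave 3102 regions of 471333 on the autosomes and 475861 in all. Of the 3102, 4 started just below position 3000000, the lowest at 2999708, and were kept. The stretch makes up 0.787% of the autosomal length considered and holds 0.658% of the autosomal regions.

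Mouse chromosomes carry the centromere at one end. The centromere and the DNA beside it consist of satellite repeats, which are packed in heterochromatin and heavily methylated at CpG in most somatic cells. Most of this satellite DNA is missing from the assembly, so the first assembled megabase is the chromosome arm next to it, where copies of repeats can be collapsed into a single assembled copy.

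The libraries came from small intestine epithelium of mice of a mixed C57BL/6 CD1 strain and were made by MBD sequencing, in which a methyl-CpG-binding protein domain captures methylated DNA fragments. Each of 4 groups had 2 replicates. The embryonic groups, at stages E12.5 and E14.5 (days of embryonic development), were EpCAM-positive cells negative for the endothelial marker CD31 and the leukocyte marker CD45, a gate for epithelium as a whole. The adult groups, at postnatal day 60, came from males carrying Lgr5EGFP-Cre-ERT, in which the stem cell gene Lgr5 drives EGFP and an inducible Cre. Intestinal stem cells (ISC) were the cells with high EGFP, and enterocytes were sorted as EpCAM-positive cells negative for CD31 and CD45, a gate that does not itself separate enterocytes from other epithelial cells. Beside that allele the labels name no genotype or drug treatment for any group, and they give neither sex nor genotype for the embryos. The labels do not say whether the replicates of a group came from separate animals, so p-values measure only the spread between these libraries. Cell identity could not be checked against marker genes, because the data are peaks on DNA and no annotation of mm9 was used.

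The libraries held 31438314 to 55442400 tags, and the lists held 84990 to 338262 peaks. The E12.5 libraries had the most tags and the shortest lists. Each list was thresholded separately, so a region without a peak is a region that was not called, which does not show that it was unmethylated. Comparisons of densities, widths and strengths were therefore made as ratios of the first megabase to the remaining autosomal sequence within a library.

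Peaks were sparser in the first megabase than in the rest of the autosomes in all 8 libraries. At E12.5 the first megabases held 29.8 peaks per Mb in replicate 1 and 29.6 in replicate 2, against 41.5 and 35.2 per Mb in the rest. The E14.5 libraries held 104.1 and 114.1 peaks per Mb, against 130.3 and 139.7 in the rest. In ISC the densities were 67.5 and 97.4 peaks per Mb, against 84.2 and 116.8. Every one of these pairs was lower near the centromere, although the densities themselves followed the lengths of the lists. In enterocytes they were 55.9 and 81.3 peaks per Mb, against 67.9 and 96.1. As ratios of first megabase to rest, these were 0.717 and 0.841 for the E12.5 replicates, 0.799 and 0.816 for E14.5, 0.802 and 0.834 for ISC, and 0.823 and 0.847 for enterocytes. The mean log2 ratio was -0.31 ± 0.08 (SD, n = 8), a 0.809-fold density, and an exact two-sided sign-flip permutation test over the 8 libraries gave p = 0.00781, also after Benjamini-Hochberg adjustment over 3 measures. That is the smallest p this test can give; over the 4 group means the exact test gave p = 0.125, again the smallest possible. All libraries share 1 assembled sequence, so the test speaks to the libraries and not to chromosomes as a sample.

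**Figure D1:**
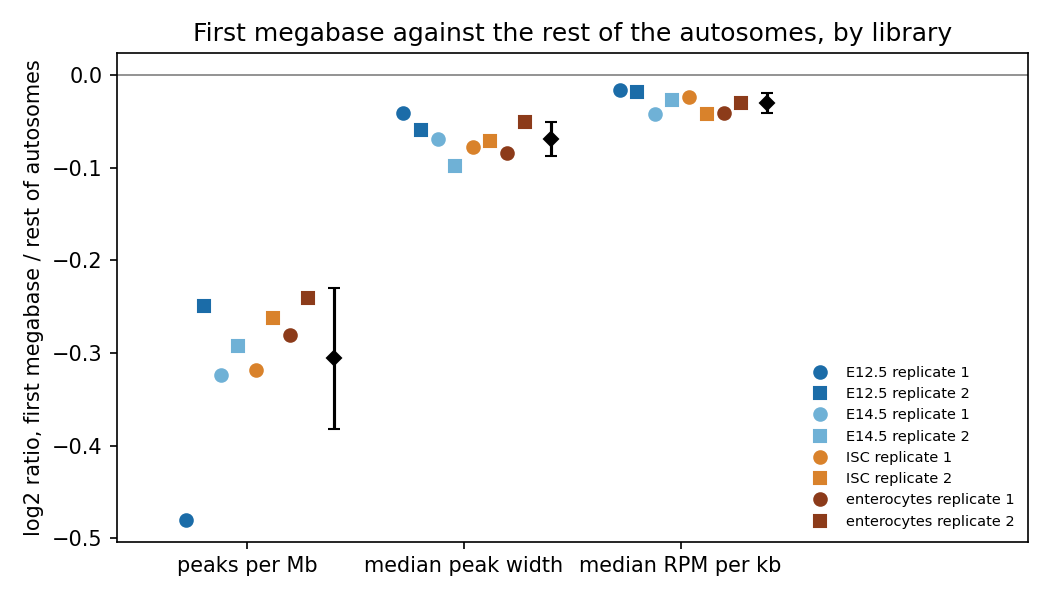
Log2 ratio of the first megabase to the rest of the autosomes (y axis) for peak density, median peak width and median RPM per kb (tags in a peak per 1000000 tags of the library, per kb of peak width), with 1 point per library and black diamonds for the mean ± SD over 8 libraries. All points lie below 0, and E12.5 replicate 1 lies lowest in density at -0.48.

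The lower density was not confined to the first megabase. In 1 Mb steps from the start of the assembled sequence, each set against the autosomal sequence beyond the first megabase, the first 15 steps all had a mean ratio below 1. The first step averaged 0.810 ± 0.041 (SD, n = 8), the second 0.883 ± 0.042 and the third 0.909 ± 0.034. The fifth step averaged 0.590 ± 0.046 and the fourteenth 0.552 ± 0.050, the lowest of the series. Of the 14 steps that followed the first, 9 had a lower mean ratio than it, and within single libraries this number ran from 7 to 11. The density of the first megabase therefore lay within the range of the neighbouring steps on the same arms. The second megabase had a ratio of 0.799 to 0.920 over the libraries, and it was lower than the first only in E12.5 replicate 2, at 0.838 against 0.841.

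**Figure D2:**
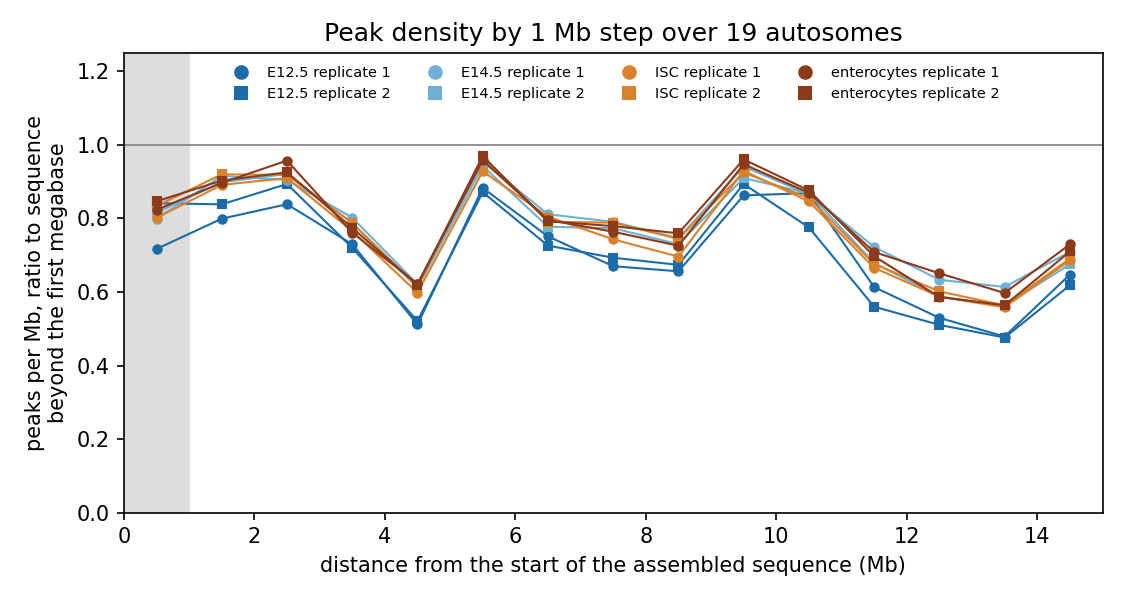
Peaks per Mb relative to autosomal sequence beyond the first megabase (y axis) in 1 Mb steps from the start of the assembled sequence (x axis, Mb), with 1 line per library and the first megabase shaded. The lines of the 8 libraries run close together, stay below 1 in all 15 steps and reach their lowest mean, 0.552, in the fourteenth step.

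The peaks called in the first megabase were also narrower, by a small margin. In base pairs, the median width was 569.5 and 485.5 in the E12.5 replicates against 586 and 506 in the rest, and 430 and 255 at E14.5 against 451 and 273. It was 450 and 479 in ISC against 475 and 503, and 801 and 595 in enterocytes against 849 and 616. Median widths differed more between libraries, from 255 to 801 bp, than between the parts of any library. The log2 ratio of widths was -0.07 ± 0.02 (SD, n = 8), a 0.953-fold width, below 0 in 8 of 8 libraries, with an exact sign-flip permutation p of 0.00781 before and after adjustment. Over the 4 group means the exact sign-flip test gave p = 0.125, the smallest possible. Width and strength were not measured in the later 1 Mb steps, so these ratios are not known to be particular to the first megabase. Over the first 2 Mb, which include the first megabase, the log2 ratios were -0.064 for width and -0.028 for strength.

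Tag strength, the median RPM per kb of peak, was slightly lower too. The log2 ratio was -0.03 ± 0.01 (SD, n = 8), a 0.979-fold strength, and was below 0 in 8 of 8 libraries (exact sign-flip permutation p = 0.00781, unchanged by adjustment). For strength too, the exact sign-flip test over the 4 group means gave p = 0.125. When only the 84990 best-scoring peaks of each list were compared, or only the first 500 kb, the call on strength was lost, with exact permutation p of 0.0547 and 0.531 after adjustment. With the first 500 kb the call on width was lost as well, at an exact permutation p of 0.0703 after adjustment. The authors' deposited fold enrichment over the caller's local background went the other way: its median in the first megabase ranged from 4.71 to 8.46 over the libraries and exceeded the median of the rest, 4.42 to 7.7, in all 8. Peaks covered 1.81% to 5.67% of the first megabase and 1.97% to 6.94% of the rest, and the first megabase was the less covered part in each library.

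No difference in these ratios between adult and embryonic libraries passed the test. The density ratio averaged 0.826 ± 0.019 in the 4 adult libraries and 0.793 ± 0.054 in the 4 embryonic ones (SD), and the ranges, 0.802 to 0.847 and 0.717 to 0.841, overlapped. The adult-minus-embryo difference in log2 density ratio was 0.06, with an exact two-sided permutation p of 0.314 (adjusted 0.471 over 3 measures); the smallest p that 4 against 4 libraries allow is 0.0286. For width the difference was -0.0036 (exact permutation p = 0.8286), and for strength -0.0087 (p = 0.286, adjusted 0.471). With 2 libraries each, single groups cannot give a p below 0.333 against one another and were not tested.

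In density ratio, the first megabases of single chromosomes varied far more than the libraries did. Peaks were most numerous on chromosome 11, with 124.5 ± 56.1 per library (SD, n = 8), followed by chromosome 19 with 119.3 ± 54.7 and chromosome 5 with 108.1 ± 46.6. Fewest were found on chromosome 14, then on chromosome 1 with 25.8 ± 14.9 and chromosome 3 with 37.6 ± 18.6. These SDs follow the lengths of the lists. Set against the rest of its own chromosome within each library, chromosome 1 had a mean density ratio of 0.297 ± 0.086 and chromosome 3 of 0.470 ± 0.063. Chromosome 12, named after its value was seen, had the highest ratio, 1.32 ± 0.10. Low counts also occurred elsewhere on chromosomes 1 and 3. On chromosome 1, 38 of the 193 other 1 Mb windows held fewer merged regions than the first megabase. The same was true of 48 of 155 on chromosome 3.

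The chromosomes did not all go 1 way. The first megabase had fewer peaks per Mb than the rest of its chromosome in all 8 libraries on 12 chromosomes, and more in all 8 on 4 chromosomes, namely 5, 11, 12 and 17. The other 3, chromosomes 2, 8 and 19, differed between libraries. On chromosome 2 the density was below that of the rest in 2 libraries, on chromosome 8 in 6 and on chromosome 19 in 1.

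Chromosome 14 held a single region, chr14:3923829-3923961, called in E14.5 replicate 2. The other 7 libraries had no peak in its first megabase in the lists used here. The sparseness of chromosome 14 was not confined to the first megabase. Between positions 4000000 and 5000000, E14.5 replicate 2 and ISC replicate 2 had 1 peak each, and the other libraries had none. The 1 Mb window from position 5000000 held 0 merged regions. Of the 121 other 1 Mb windows of the chromosome, 1 held fewer merged regions than the first megabase. Without chromosome 14 the mean log2 density ratio over the other 18 autosomes was -0.24, with ratios of 0.751 to 0.887 over the libraries and the same exact p of 0.00781. The peaks were not assigned to genes, because the only gene annotation used here is that of another build, GRCm38.p6. In that assembly's order, counted from the start of the assembled sequence, the first protein-coding genes of chromosome 12 are Rab10, a small GTPase of vesicle transport, and Kif3c, a kinesin motor. Those of chromosome 1 are Xkr4 and Rp1, a photoreceptor gene, and chromosome 3 begins with Hnf4g, a nuclear receptor expressed in intestinal epithelium. Chromosome 11 begins with Sfi1, a centrosome gene, and chromosome 14 with the predicted genes Gm2888 and Gm2897.

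**Figure D3:**
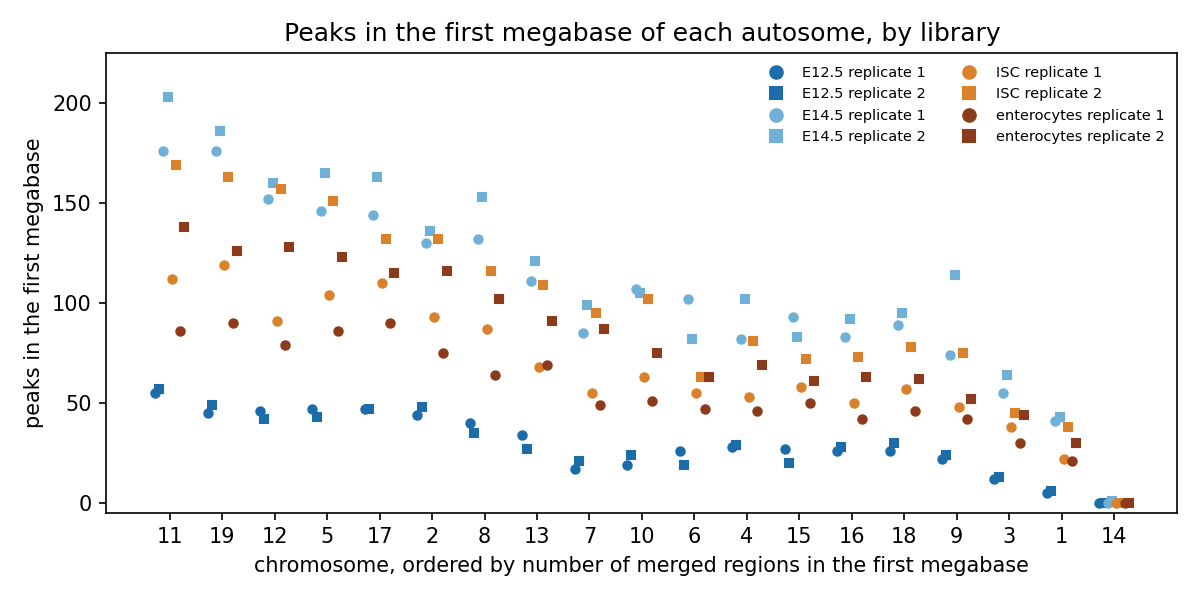
Peaks that start in the first megabase (y axis, number) for each of 19 autosomes (x axis, ordered by the number of merged regions there), with 1 point per library. Chromosome 11 has 55 to 203 peaks, chromosome 1 has 5 to 43, and chromosome 14 has 1 peak in 1 library.

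Within the first megabase, the 100 kb next to the start stood apart in strength. It held 196 of the 3102 regions, and its density ratio to the rest of the autosomes was 0.675 ± 0.106 (SD, n = 8), while over the 9 later 100 kb steps the mean ratio ran from 0.631 to 0.977. Median peak width was 1.11-fold and median strength 1.201-fold that of the rest, against 0.877-fold to 0.993-fold for width and 0.945-fold to 0.990-fold for strength in the later steps. The E12.5 libraries were highest in both, at 1.45 and 1.35 for width and 1.55 and 1.49 for strength. In the other 6 libraries width ran from 0.923 to 1.09. Strength there reached 1.33 for E14.5 replicate 2, and the remaining 5 libraries ran from 1.01 to 1.12. A peak in all 8 libraries was found in 29 of the 196 regions, 14.8% (95% Wilson interval 10.5% to 20.4%, which takes regions as independent), and in 3.40% to 7.26% of the regions in the other steps. The mean excess in width was gone, and that in strength nearly so, without chromosomes 4, 9 and 11. On the other 16 chromosomes the first 100 kb had a density ratio of 0.556 ± 0.065, a width ratio of 0.960 ± 0.054 and a strength ratio of 1.01 ± 0.05, and 18 of 152 regions, 11.8%, were called in all 8 libraries.

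Pile-ups of tags were frequent in the first 100 kb of those chromosomes. Of 114 autosomal peaks with at least 1000 tags, counted over the 8 lists, 59 (51.8%) started in the first megabase, and the other 55 lay elsewhere. Chromosome 11 held 44 of these in 9 regions between positions 2999789 and 3095964, with up to 5244 tags in a peak. Chromosome 9 held 10 in 3 regions, and chromosome 4 held 5 in 2 regions. Of the 100 peaks with most tags in a list, the first megabase held 22 and 22 for the E12.5 replicates, 23 and 22 for E14.5, 23 and 19 for ISC, and 10 and 13 for enterocytes. Both enterocyte libraries were thus below the other 6 on this measure. By peaks of at least 1000 tags they were not set apart. The enterocyte lists held 5 and 6 of these in the first megabase, and E14.5 replicate 2 also held 6.

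These peaks weighed on the share of tags. The first megabase held 1.06% and 1.24% of the tags in autosomal peaks for the E12.5 replicates, 0.758% and 0.823% for E14.5, 0.895% and 0.768% for ISC, and 0.679% and 0.749% for enterocytes. The E12.5 libraries were highest, and their lists were also the shortest. Without the peaks of 1000 tags or more, the shares ran from 0.615% to 0.785% over the 8 libraries. The E12.5 values, 0.658% and 0.785%, then overlapped those of E14.5, 0.635% and 0.730%, and of ISC, 0.677% and 0.658%, and lay above those of enterocytes.

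The strongest regions called in all 8 libraries had similar numbers of tags in libraries of different depth. The region chr11:2999789-3006157 had 1894 and 1815 tags summed over its peaks for the E12.5 replicates, 2064 and 1344 for E14.5, 1839 and 1849 for ISC, and 2323 and 1955 for enterocytes. The region chr9:3024066-3027938 had 1363 and 1306 tags in the E12.5 replicates, 1352 and 1298 for E14.5, 1359 and 1381 for ISC, and 1600 and 1385 for enterocytes. The next regions by median RPM were chr9:2999708-3003154, chr9:3035394-3038702 and chr4:3016290-3018786. In all 5 the tags as deposited varied less over the libraries than the RPM, with a median coefficient of variation of 6.82% against 21.1%. The same held in all but 29 of the 174 regions of the first megabase called in all 8 libraries, with medians of 27.1% and 32.5%. Regions in the rest of the autosomes were not compared in this way. The lower variation of tags is therefore not known to be particular to the first megabase. The cause was not tested; per the file headers the caller kept at most 1 tag per position.

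Summed over the first 100 kb, chromosomes 4 and 9 differed in this respect. On chromosome 9 the peaks held 5504 to 6608 tags, a coefficient of variation of 5.79%, and 106.3 to 199.5 RPM, a coefficient of 23.6%. RPM there was 106.6 ± 0.5 at E12.5 and 185.5 ± 5.5 at E14.5 (SD, n = 2), whereas the tags were 5898 ± 10 and 6443 ± 233. Both E12.5 libraries were thus below both E14.5 libraries on either scale, and the gap was wider in RPM. On chromosome 4 the tags varied by 23.7%, from 1461 to 2590, and the RPM by 6.41%, from 41.6 to 48.3. On chromosome 11 the peaks held 11857 to 19388 tags in 7 libraries and 2486 tags, in 4 peaks, in enterocyte replicate 1.

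**Figure D4:**
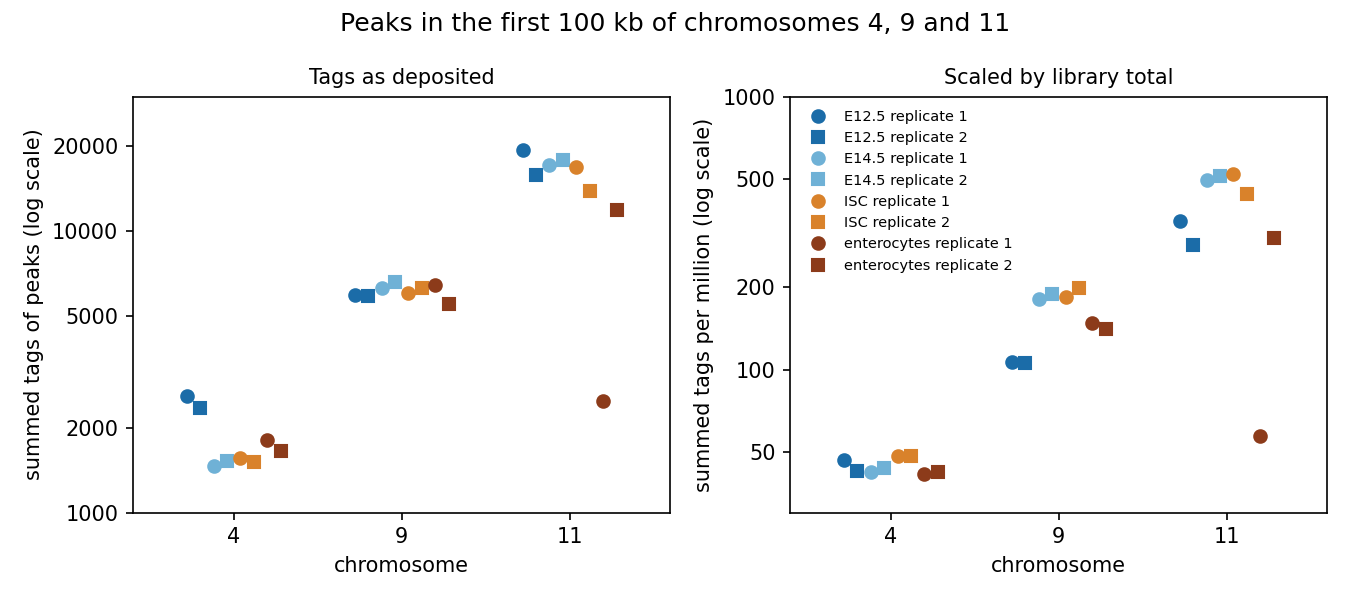
Tags summed over the peaks in the first 100 kb of chromosomes 4, 9 and 11 (x axis), as deposited (left) and as RPM (right), both on a log scale with 1 point per library. On chromosome 9 the tags lie between 5504 and 6608 and the scaled values spread from 106.3 to 199.5, and on chromosome 11 enterocyte replicate 1 lies far below the other libraries.

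Regions of the first megabase were called in the groups about as often as regions elsewhere. A peak in both replicates was found in 8.03% of the 3102 regions for E12.5, 41.9% for E14.5, 30.5% for ISC and 27.4% for enterocytes. Over the rest of the autosomes the shares were 7.99%, 44.0%, 31.7% and 27.9%. The order of the groups followed the lengths of their lists in both parts. Calls in a single library made up 29.2% of the regions (907), against 27.7% elsewhere, and E14.5 replicate 2, the longest list, supplied 280 of them. A peak in all 8 libraries was found in 174 regions, 5.61%, against 5.20% elsewhere. Merged regions were of similar length, with a median of 531 bp against 560 bp, and those called in all 8 libraries had a median of 1188.5 bp.

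**Figure D5:**
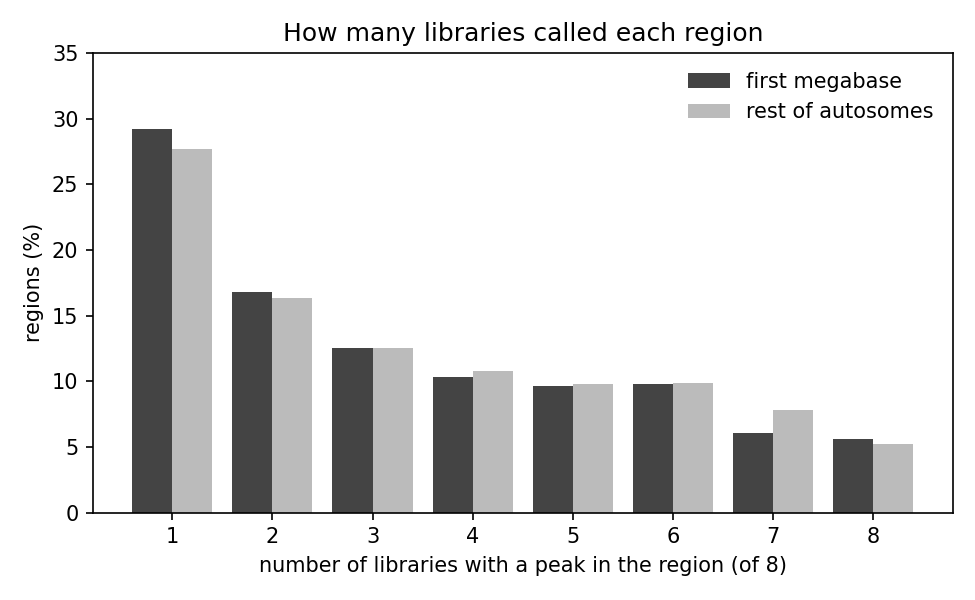
Share of merged regions (y axis, %) by the number of libraries with a peak in the region (x axis), for the first megabase and the rest of the autosomes. Single-library regions are the most frequent class in both, at 29.2% and 27.7%, and regions called in all 8 make up 5.61% and 5.20%.

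In 572 regions both replicates of every group gave the same call. Of these, 177 (30.9%) had calls for E14.5, ISC and enterocytes but none for E12.5. All 4 groups were called in 174 (30.4%), and E14.5 alone in 118 (20.6%). Over the rest of the autosomes the corresponding shares of 82535 such regions were 31.4%, 29.5% and 20.6%. The patterns of presence were thus close to those of other sequence.

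Between the embryonic stages, 754 regions were called by both E14.5 lists and neither E12.5 list, 24.3% of the 3102, beside 24.0% of all autosomal regions. The reverse pattern was found in 8 regions (0.258%, beside 0.276%). With lists cut to equal length the counts were 79 and 46 of 1426 regions (5.54% and 3.23%, beside 5.40% and 3.58% of the remaining autosomal regions). The highest-ranked regions called at E14.5 and not at E12.5 lay in the first 100 kb of chromosome 11. Over that stretch the E12.5 peaks held 19388 and 15851 tags in all, against 17168 and 17814 at E14.5. At chr11:3049201-3054654 its peaks held 2552 and 2610 tags at E14.5 and 2675 and 2515 in ISC. Neither E12.5 nor enterocyte libraries had a peak inside it, yet the nearest E12.5 peak lay 202 bp away and the nearest enterocyte peak 218 bp. The region chr11:3055537-3059236 had 1404 and 973 tags at E14.5, and its nearest E12.5 peak lay 6538 bp away. The third, chr11:3063080-3066219, had 404 and 503 tags at E14.5, and its nearest E12.5 peak lay 601 bp away.

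Among the 8 regions called at E12.5 and not at E14.5, the first by rank was chr16:3252652-3253569, with 64 and 81 tags at E12.5 and no peak in the other 6 libraries. The nearest E14.5 peak lay 3041 bp away. The second, chr16:3246512-3247134, had 68 and 72 tags at E12.5, and the third, chr2:3800913-3801627, had 45 and 39. Both were also called in ISC replicate 1, the latter in enterocyte replicate 2 as well. Their nearest E14.5 peaks lay only 213 and 299 bp away.

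ISC and E14.5 differed by 60 regions called in both ISC libraries and in no E14.5 library (1.93%, beside 1.93% of all autosomal regions). In the other direction there were 198 (6.38%, beside 6.67%). With lists of equal length the excess for E14.5 was gone, with 48 for ISC and 39 for E14.5 (3.37% and 2.73%, beside 3.25% and 2.98%). The first by rank, chr7:3200607-3201410, had peaks in the 4 adult lists and lacked one in the 4 embryonic lists. Its peaks held 36 and 35 tags for ISC against 55 and 43 for enterocytes, a median of 1.11 RPM. The next were chr2:3961293-3961764, with 35 tags in each ISC library and no call elsewhere, and chr12:3398663-3399229, with 31 and 34. The latter was also called in E12.5 replicate 2 and enterocyte replicate 2. In order of rank, the nearest E14.5 peaks lay 1632, 475 and 388 bp from these regions. Called at E14.5 and in no ISC library were chr15:3919380-3920404, with 85 and 48 tags, chr12:3474582-3475204, with 44 and 28, and chr8:3827974-3828099, with 17 and 16. The chromosome 15 region was also called in both E12.5 lists. The chromosome 12 region was also called in E12.5 replicate 2 and both enterocyte lists. The nearest ISC peaks lay 641, 1175 and 1373 bp away, in the same order.

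In the adult epithelium, 38 regions were called in both enterocyte libraries and in no ISC library (1.23%, beside 1.28%), and 118 in both ISC libraries and in no enterocyte library (3.80%, beside 3.89%). With lists of equal length the counts were nearly even, at 45 for enterocytes and 43 for ISC (3.16% and 3.02%, beside 2.88% and 2.31%). The first enterocyte region was chr7:3102880-3104021, with 66 and 60 tags in enterocytes and 35 and 22 at E14.5, and its nearest ISC peak lay 2648 bp away. It was followed by chr18:3698345-3699198, with 53 and 51 tags, and chr5:3366401-3367206, with 58 and 42. The chromosome 18 region also had 26 and 31 tags at E14.5, and its nearest ISC peak lay 5761 bp away. The chromosome 5 region was called in every list but those of ISC, and an ISC peak lay 673 bp away. The 3 highest-ranked ISC regions were all in the chromosome 11 pile-ups, led by chr11:3076078-3080232 with 1817 and 1528 tags in ISC. That region also had 3025 tags in E12.5 replicate 2 and 1677 and 1820 at E14.5. The summed tags of enterocyte replicate 1 over this stretch of chromosome 11 were the low value given above, and its part in these calls was not tested.

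Across age, 15 regions had a peak in each of the 4 adult lists and none in an embryonic list (0.484%, beside 0.405%), and 6 had the reverse (0.193%, beside 0.140%). With lists of equal length the counts were 7 and 4 (0.491% and 0.281%, beside 0.641% and 0.223%). The adult regions were led by chr7:3200607-3201410, described above, followed by chr11:3186743-3187889, with 44 and 64 tags for ISC against 68 and 79 for enterocytes, and chr12:3810878-3811638, with 31, 30, 49 and 40. The embryonic regions were led by chr15:3919380-3920404, with 46 and 88 tags at E12.5 and 85 and 48 at E14.5, followed by chr8:3308121-3308750, with 39, 29, 27 and 58, and chr15:3648721-3649399, with 46, 31, 22 and 26. Peaks of the other age lay close to several of them: the nearest adult peak was 564 bp from the first and 367 bp from the second of these embryonic regions. In every one of the 8 lists of differently called regions, the share in the first megabase was close to the share over all autosomal regions. These counts come from few libraries, and leaving out 1 library moved 26 of 40 of them by more than 1.5 times. All moved upward by construction, because leaving out a library relaxes the presence rule.

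The edge of the stretch fell among ordinary regions. The last regions inside it were chr11:3999642-3999816, called in 1 library, chr19:3998904-3999179, also in 1, and chr12:3998728-3999834, called in 5. The first beyond it were chr16:4000160-4001641, called in all 8 libraries, chr2:4000163-4000553, in 2, and chr13:4000197-4001065, in 7.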

How the data were processed

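Peaks were called with MACS 1.4.2 without a control library, per the file headers, with a p cutoff of 1e-05, a band width of 200 bp, a regional background of 10000 bp, a tag size of 180 bp and at most 1 tag per position. The build was mm9, and the tools named are bcl2fastq 1.8.4, Bowtie 1.1.2 and SAMtools 1.2, per the submitters' processing notes. The deposited lists give for each peak its tag count, a score made from the logarithm of p, and a fold ratio over local background, each as the authors' caller wrote it. Sums of tags are over called peaks, since each list was thresholded separately; no background level is known where no peak was called.

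Lists were merged at 1 bp overlap (Python 3.11.15, pandas 2.3.3, SciPy 1.17.1). Density used 19 Mb of first megabases and, for the rest, sequence up to the last peak of any library. Ratios were tested by exact permutation over libraries, with a threshold of 0.05. The measured ratios and the counting of group-only regions were checked on simulated data with planted values, and the p-values were not. Up to 3 regions per direction were named, ranked by score percentile; the 5 strongest called in all 8 libraries, 3 highest and 3 lowest chromosomes and regions at the edge were also named. Members and rules were chosen with earlier results of these data known. Wilson intervals, at 95%, cover counting error only. Replicate numbers showed no sign of pairing samples across groups: over 6 pairs of groups the correlation of deviations was -0.028 to 0.018. That cannot exclude a batch shared by samples of the same number. Alternatives were equal-length lists, pile-ups left out, other stretches, chromosome medians, merging within 500 bp, left-out libraries and, added after the data were seen, leaving out chromosome 14 or the first 100 kb. Gene names came from a RefSeq table of GRCm38.p6. Sequences were not analysed here.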

Additional observations from a re-analysis of the deposited data

Results flagged for a closer look

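Only 1 value stood far from the others of its set, of 14 sets of libraries examined, and chance alone flags about 1 set in 20. The log2 density ratio of E12.5 replicate 1, -0.48 (a ratio of 0.717), was lower than that of the other 7 libraries, with a gap to the nearest of 0.654 of the whole range, above Dixon's critical value for 8 libraries. The other E12.5 library was at 0.841. Without E12.5 replicate 1 the mean log2 ratio over the other 7 was -0.28.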

How the results depend on the processing

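The density ratio stayed below 0 on the log2 scale and past the threshold under all 7 alternatives, from -0.41 (median over chromosomes) to -0.24 (without chromosome 14), and without any 1 library, from -0.32 to -0.28. Width and strength lost their calls with the first 500 kb, at -0.032 and -0.0049, and strength with equal-length lists, at -0.0092; the cause was not tested. Without any 1 library width ran from -0.073 to -0.065 and strength from -0.032 to -0.028. No difference between adult and embryo passed the threshold under any setting. That of density reversed to -0.014 as a median over chromosomes. That of width reversed to 0.00034 without pile-ups, 0.013 with the first 2 Mb, 0.0091 as a median over chromosomes and 0.0028 without the first 100 kb. Without 1 library these differences ran from 0.013 to 0.090 for density, -0.014 to 0.0050 for width and -0.014 to -0.0056 for strength. A replicate block left the values at 0.061, -0.0036 and -0.0087, with exact permutation p of 0.167, 0.833 and 0.333. The block changed no call, and no tie beyond the number is known between samples that share it.

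Equal-length lists left 1426 regions, of which 79 were called at E14.5 and not E12.5 and 46 in the reverse, 48 in ISC and not E14.5 and 39 in the reverse, 45 in enterocytes and not ISC and 43 in the reverse, and 7 in adult and not embryo and 4 in the reverse. The shares of the remaining autosomal regions were, in that order, 5.40%, 3.58%, 3.25%, 2.98%, 2.88%, 2.31%, 0.641% and 0.223%. Merging within 500 bp left 2659 regions, with 4 called at E12.5 and not E14.5. The shares called in both replicates, in the order E12.5, E14.5, ISC and enterocytes, became 15.7%, 21.5%, 23.9% and 25.8% with equal-length lists, and 9.55%, 46.2%, 34.3% and 31.1% with merging. Leaving out a library relaxes the presence rule by construction. The counts then ran from 919 to 1297 and 20 to 82 between E14.5 and E12.5 (E14.5 first), from 1.5e+02 (rounded) to 299 and 282 to 551 between ISC and E14.5, from 72 to 241 and 173 to 484 between enterocytes and ISC, and from 15 to 41 and 6 to 12 between adult and embryo. With 2 libraries a group and separate thresholds, depth and list length limit every statement on presence.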
